A study of Gallus gallus and Anas platyrhynchos and Coturnix japonica with 11 samples.

Results

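miR-21 is a microRNA (miRNA), a short RNA that lowers the output of messenger RNAs whose sequence pairs with its seed. It was chosen here by its number, as the miRNA called 21 with any strand counted, and because it is among the most abundant miRNAs of the avian face. The chicken strand gga-miR-21 was the only match, 1 of the 186 miRNAs listed. Its level, rank and share of reads are therefore descriptions of a miRNA picked for being abundant, and carry no test. The rule did not use its differences between stages and species, and these were tested. Earlier results of these data were known when miR-21 was chosen.

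The study sequenced the miRNAs of the frontonasal prominence (FNP), the embryonic swelling that forms the upper beak, in untreated embryos of duck (Anas platyrhynchos), quail (Coturnix japonica) and chicken (Gallus gallus). Facial mesenchyme of neural crest origin was dissected at Hamburger-Hamilton stages HH25, when the species differ in face shape, and HH20, when they look alike. For each species and stage 40 embryos went into the first pool, and duck and chicken had another pool, of 5 embryos. Duck and chicken thus had 2 samples at HH25 and 2 at HH20, and quail had 1 at each stage. A single pool, chicken HH25 from 5 embryos, had 2 sequencing runs whose mean stands for 1 sample, so that 11 libraries gave 10 samples. The mesenchyme was freed from its ectoderm and from the neuroectoderm of the forebrain with dispase and needles. Every sample is a pool of embryos, so differences between single embryos are not seen. In bulk samples of this kind, fewer cells of a type and less RNA per cell cannot be told apart.

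In mammals, miR-21 comes from a gene at the end of VMP1 and is abundant in fibroblasts and other mesenchymal cells. Known mammalian targets include PDCD4, a brake on translation, and SPRY1, an inhibitor of receptor tyrosine kinase signalling. In human cells, SMAD proteins of the TGF-β and BMP pathways bind the letters CAGAC in the stems of primary miR-21 and primary miR-199a and raise their processing. BMP and TGF-β signals also pattern the growing face.

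The mature sequence carries both the seed and the CAGAC letters, and is shown first with the seed, bases 2 to 8, in capitals and then with CAGAC, bases 9 to 13, in capitals. Below it stands the mature strand of miR-199, whose human primary transcript is also known to be bound by SMADs at this motif, with CAGAC at bases 10 to 14.
miR-21 (seed): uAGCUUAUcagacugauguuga
miR-21 (CAGAC): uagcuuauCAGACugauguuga
miR-199 (CAGAC): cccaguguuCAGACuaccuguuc
A message paired with the whole seed and with an A opposite the first base would read AUAAGCUA. The hairpin of miR-21 is listed on chicken build gga3 at chr19:7322072-7322168. In RefSeq's GRCg7b annotation the gene MIR21 lies between VMP1 and TUBD1, inside the span given for RPS6KB1. None of the other miRNAs listed shared its seed (0). The nearest mature sequences, those of miR-10b, miR-122 and miR-15a, differed from it at 10 positions without gaps, and 0 lay within the 2 mismatches that the mapping allowed. No other listed miRNA was thus close enough in full length to take its reads under that allowance, unlike in families of near-identical miRNAs.

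The libraries held 3097711 to 10894243 reads, of which 53.5% (second chicken sample at HH20) to 85.1% (first duck sample at HH25) fell on the listed miRNAs. Values are PMMR, the reads of a miRNA for every 1000000 reads left after adapter removal. miR-21 had 68645 to 322068 reads in a library, so counting error was small beside the differences between samples. The first chicken sample at HH25 stood apart, with 45 of 186 miRNAs over 4-fold from their mean in the other samples, against 3 to 13 in each other sample. A list of 6 mesenchymal miRNA strands summed to 17019 PMMR in it and to 58887 to 151862 PMMR in the others, with all 6 above 15 PMMR everywhere. The neural list of 7 was highest there, at 3562 PMMR against 693.8 to 1901 PMMR, and the surface ectoderm list of 6 was lowest, at 87.2 PMMR against 407.5 to 2293 PMMR. Blood markers (6) summed to 175.8 PMMR against 441.2 to 929.8 PMMR, and endothelial markers (2) to 4992 PMMR against 16407 to 40678 PMMR. No marker was at 0 in any sample. In the first chicken sample at HH25, however, only 2 of the 6 ectoderm strands and 3 of the 6 blood strands exceeded 15 PMMR. In the other samples 5 or 6 of the ectoderm strands and 3 to 6 of the blood strands did. The part of these markers in the miR-21 values was not tested. Fitted changes that rest on that sample are given with and without it. So is the likeness of the 5 miRNAs most alike in pattern and the 2 least alike. Other values include it unless stated.

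miR-21 was abundant in every sample, at 18764 to 62785 PMMR. Duck faces at HH25 had 31810 PMMR in the first sample and 29563 PMMR in the second, against 38879 and 33669 PMMR at HH20. Quail faces had 32998 PMMR at HH25 and 29582 PMMR at HH20. Chicken faces had 18764 and 44043 PMMR at HH25, against 62785 and 37015 PMMR at HH20. Duck and quail samples thus lay close together, while chicken held both the lowest sample, the first at HH25, and the highest, the first at HH20. The highest sample exceeded the lowest by 1.32-fold within duck, 1.12-fold within quail and 3.35-fold within chicken.

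**Figure D1:**
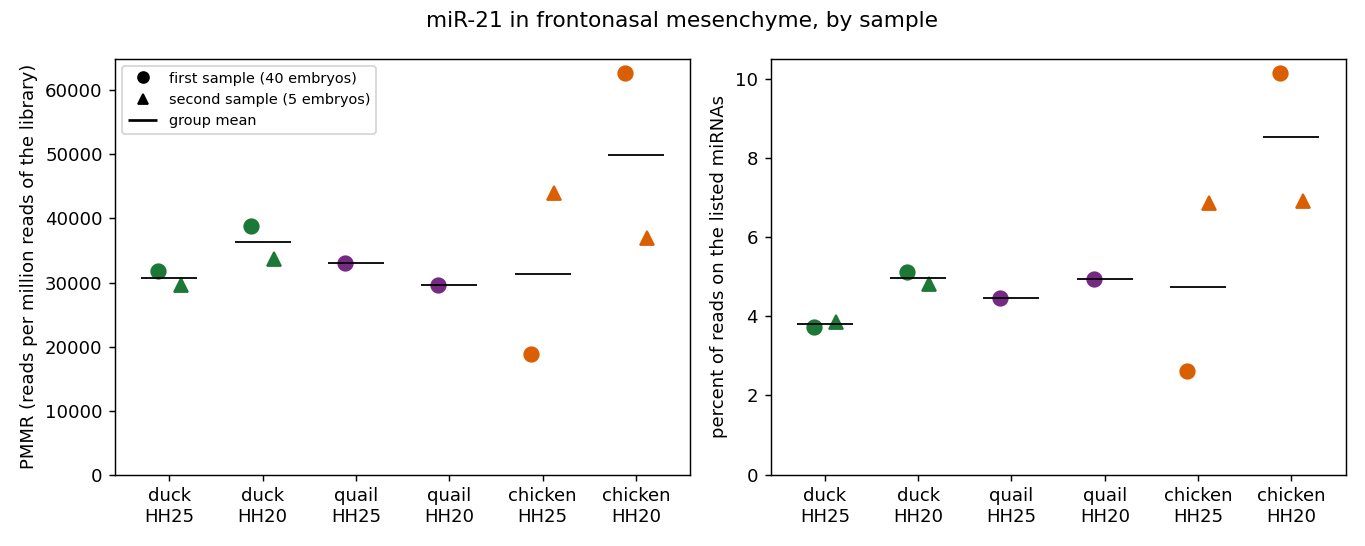
Level of miR-21 in PMMR (left) and its share of the reads on listed miRNAs in percent (right), in each sample by species and stage. Circles are first samples, triangles second samples and bars group means. The 4 duck samples lie between 29563 and 38879 PMMR and the 4 chicken samples between 18764 and 62785 PMMR.

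As a share of all reads, miR-21 took least in the first chicken pool at HH25, 1.88% (95% Wilson interval 1.863 to 1.890%), and most in the first chicken pool at HH20, 6.28% (6.256 to 6.301%). Pooled over the libraries it took 2255203 of 61772927 reads, or 3.65% (3.646 to 3.655%). These intervals cover counting error only and are far narrower than the spread between samples. Among reads on the listed miRNAs its share was 3.74 and 3.86% in duck at HH25, against 5.11 and 4.81% at HH20. In quail the share was 4.47% at HH25 and 4.95% at HH20, and in chicken 2.62 and 6.86% at HH25, against 10.1 and 6.92% at HH20. On that denominator the share was lower at HH25 in each of the 5 pairs of the same species and sample number, with log2 ratios of -1.95 to -0.01, as were the shares of 15.1% of the 186 miRNAs. The second chicken pair, at -0.01, was nearly level, and in PMMR that pair and quail were higher at HH25. Pairs are set side by side here by number only.

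By group, miR-21 averaged 30687 ± 1589 PMMR in duck at HH25 and 36274 ± 3684 PMMR in duck at HH20 (SD, n = 2 each). Chicken averaged 31404 ± 17875 PMMR at HH25 and 49900 ± 18222 PMMR at HH20 (SD, n = 2 each). The order of the means ran chicken HH20, duck HH20, quail HH25, chicken HH25, duck HH25, quail HH20. No neighbours in that order differed by more than the larger of their SDs. The nearest to doing so were duck HH20 and quail HH25, whose difference of 3276 PMMR lay under the SD of 3684 PMMR in duck at HH20 although their values did not overlap.

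miR-21 ranked 5th by mean level, at 35911 ± 11562 PMMR (SD, n = 10), behind miR-143, miR-146a, miR-146c and miR-363. It was in the top 10 in 9 of 10 samples and at rank 7 or better in 8. It ranked 7 and 10 in duck at HH25, 7 and 7 in duck at HH20, and 6 at both stages in quail. In chicken it ranked 13 and 3 at HH25 (3 and 4 in the separate runs), against 1 and 4 at HH20. It was the most abundant miRNA in 1 sample, the first chicken sample at HH20, where miR-363 came next at 53650 PMMR.

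**Figure D2:**
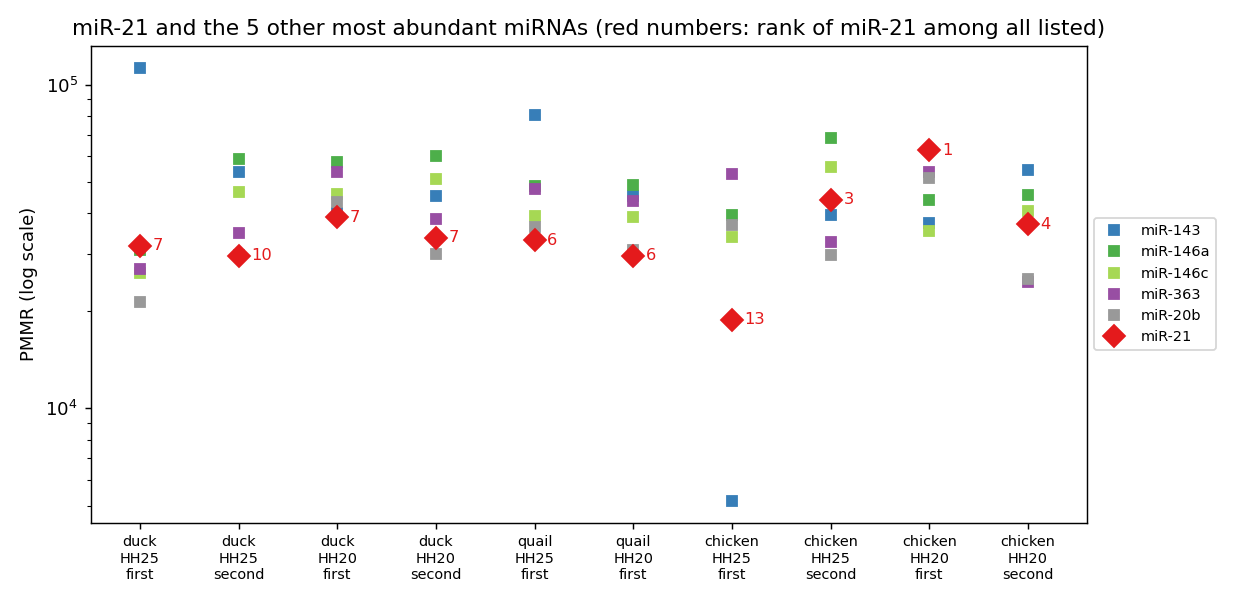
Levels of miR-21 (red diamonds) and of the 5 other most abundant miRNAs (squares) in each of the 10 samples, in PMMR on a log scale, with the rank of miR-21 among all listed miRNAs printed beside it. The rank is 13 in the first chicken sample at HH25, the lowest, and 1 in the first at HH20.

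The ranks next to it were close in places. In the first duck sample at HH20 miR-126, an endothelial miRNA, stood just above it at 39285 PMMR and miR-148a just below it at 38440 PMMR. The chicken HH25 sample from 40 embryos had it between miR-20a at 18887 PMMR and miR-100 at 18486 PMMR. A change of 1 or 2 ranks is thus a small change in level. Against the median miRNA of its library, the level was 88.6 times as high in the first chicken pool at HH25 and 381.6 times in the first at HH20.

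Set against the other abundant miRNAs, miR-21 held an intermediate spread. The SD of its log2 level over the 10 samples was 0.45, the 16th lowest of 165 miRNAs with a mean of at least 15 PMMR (median 0.77) and the 10th lowest of 24 with a mean of at least 10000 PMMR (median 0.57). Without the first chicken sample at HH25 it was 0.34. miR-143, which is known from smooth muscle and other mesenchyme, was the most abundant miRNA by mean, at 51436 PMMR, with a SD of 1.17. The SD was 0.34 for miR-146a, known from innate immune signalling, at 50330 PMMR, and 0.32 for miR-146c at 41395 PMMR. The ratio of miR-21 to miR-143 ranged from 0.282 in the first duck sample at HH25 to 3.63 in the first chicken sample at HH25, where miR-143 was at 5167 PMMR. miR-21 exceeded miR-143 in 3 of 10 samples, miR-146a in 2, miR-146c in 2, miR-363 in 4 and miR-20b, which followed it in rank at 33498 PMMR, in 5.

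The stage comparison asks whether miR-21 changed while the species' faces diverged. In duck it was lower at HH25 in both pairs, by 1.22-fold in the first samples and 1.14-fold in the second. In these pairs 39.2% and 40.3% of the 186 miRNAs had a lower ratio than miR-21. Lower by at least 2-fold were 13.4% and 12.4% (counted, as in every pair, only if 1 library or both exceeded 15 PMMR). Both HH25 duck samples lay below both HH20 duck samples, as did those of 21.5% of the 186 miRNAs. In quail, where 57.5% of miRNAs had a lower ratio and 4.84% were higher by at least 2-fold, miR-21 was 1.12-fold higher at HH25. Its log2 ratio was 0.16 (0.15 to 0.17 by counting error alone). As a share of the reads on listed miRNAs the direction turned, to a log2 ratio of -0.15, and after median-centring it was 0.50. In chicken it was 3.35-fold lower at HH25 in the first samples and 1.19-fold higher in the second, so the direction differed between the pairs and the groups overlapped, while 12.4% of miRNAs lay wholly lower at HH25. At least 2-fold lower were 19.9% of miRNAs in the first chicken pair, miR-21 among them, and at least 2-fold higher were 19.9% in the second. The median of all miRNAs in the first chicken pair was 0.23 on the log2 scale and 16.1% of miRNAs had a lower ratio than miR-21.

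**Figure D3:**
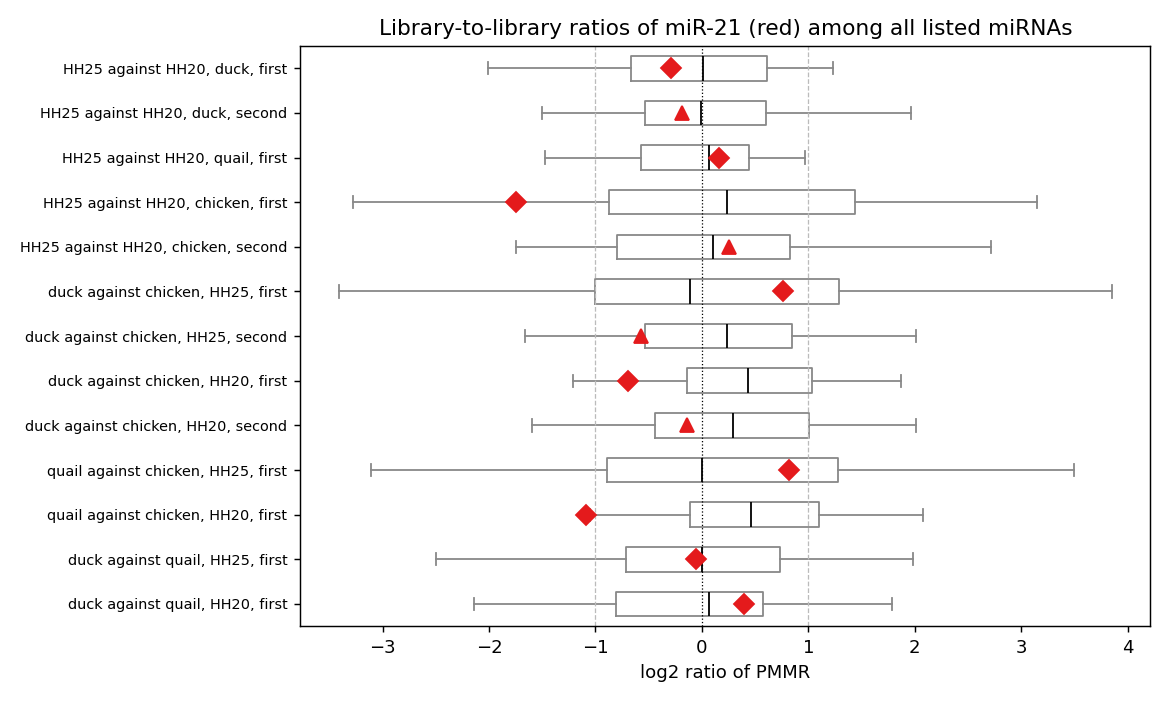
Log2 ratio of the PMMR of miR-21 in each of the 13 pairs of samples (red, diamonds for first and triangles for second samples), over a box plot of all 186 miRNAs in the same pair with the median as a line, the quartiles as the box and whiskers to the 5th and 95th percentiles. Dashed lines mark 2-fold. The first chicken stage pair, at -1.74, and quail against chicken at HH20, at -1.09, are the pairs past 2-fold.

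None of the stage tests called miR-21. With limma on log2(PMMR + 1) and Benjamini-Hochberg adjustment over all 186 miRNAs, the change over the 3 species was -0.36 ± 0.303 (SE; 95% interval -1.04 to 0.31; adjusted p = 0.515), where 6 miRNAs (3.23%) were called. An exact permutation test of miR-21 alone, with samples exchanged within species, gave p = 0.306 (two-sided), and the smallest p this design allows is 0.0278. Without the first chicken sample at HH25 the change over the 3 species was -0.11. In duck limma gave -0.24 ± 0.539 (-1.47 to 0.99; adjusted p = 0.951) and in chicken -0.75 ± 0.539 (-1.98 to 0.49; adjusted p = 0.616). In those comparisons limma called 0 miRNAs (0%), while 9 in duck and 21 in chicken had an unadjusted p below 0.05, and limma voom on the reads also called 0. Both intervals include a 2-fold decrease. Without the first chicken sample at HH25 the chicken value was -0.13, and without the second it was -1.36 (-2.64 to -0.09; limma adjusted p = 0.101), in a fit that called 53 of the 186 miRNAs. Each of these fits leaves 1 chicken sample at HH25, which is assumed to vary like the samples of the other groups. The difference of the stage change, duck minus chicken, was 0.51 ± 0.763 (-1.24 to 2.25; limma adjusted p = 0.996), among 0 called (0%; 1 at an unadjusted p under 0.05, and 0 by voom), and it turned to -0.11 without the first chicken sample at HH25.

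The species comparisons ask whether the level differed between the broad duck bill and the pointed quail and chicken beaks. At HH25 miR-21 was 1.70-fold higher in duck than in chicken in the first samples and 1.49-fold lower in the second, and the groups overlapped. At least 2-fold higher in the first samples were 27.4% of miRNAs and at least 2-fold lower in the second 11.8%, and 21.5% lay wholly higher in duck. At HH20 it was 1.61-fold and 1.10-fold lower in duck than in chicken, with overlap again, since the first duck sample at 38879 PMMR exceeded the second chicken sample at 37015 PMMR. In those pairs 5.91% and 9.68% of miRNAs were at least 2-fold lower, and 10.2% lay wholly lower in duck. The direction at HH25 thus followed which chicken sample was used. Over both stages duck averaged 33480 ± 3972 PMMR and chicken 40652 ± 18200 PMMR (SD, n = 4 each).

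limma gave duck minus chicken as 0.09 ± 0.539 at HH25 (-1.14 to 1.33; adjusted p = 0.968), where 2.15% of miRNAs were called (0 by voom, and 0 after median-centring). Without the first chicken sample at HH25 that value was -0.52. At HH20 it was -0.41 ± 0.539 (-1.65 to 0.82; limma adjusted p = 0.859), with 0 called (0%), 23 at an unadjusted p under 0.05 and 0 by voom. Over both stages the difference was -0.16 ± 0.355 (-0.96 to 0.64; limma adjusted p = 0.855), where 9.68% were called. The exact permutation test within stages gave p = 0.667 (two-sided), and the smallest p this design allows is 0.0556. Without the first chicken sample at HH20 the difference was 0.04, without the second at HH25 it was also 0.04, and without the first at HH25 it was -0.46.

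Quail was higher than chicken by 1.76-fold at HH25 and lower by 2.12-fold at HH20, each from 1 quail sample and the first chicken sample. The second chicken samples, at 44043 PMMR (HH25) and 37015 PMMR (HH20), were both above the quail sample of their stage. At HH25 25.8% of miRNAs were at least 2-fold higher in quail. At HH20 only 4.30% of miRNAs had a lower ratio than miR-21, and 4.84% were at least 2-fold lower in quail with more than 15 PMMR. The fit over both stages gave -0.25 ± 0.415 for quail minus chicken (-1.18 to 0.67; limma adjusted p = 0.808; 1.08% called), 0.07 without the quail sample at HH20 and -0.56 without the first chicken sample at HH25. Duck and quail were close, 1.04-fold lower in duck at HH25, where 17.2% of miRNAs were at least 2-fold lower, and 1.31-fold higher in duck at HH20, where 15.1% were at least 2-fold higher. Their difference was 0.09 ± 0.415 (-0.83 to 1.02; limma adjusted p = 0.951; 5.91% called), and -0.23 without the quail sample at HH20. Quail had first samples only, while the chicken and duck sides of these fits also held second samples from smaller pools. Species is thus partly mixed with pool size in both differences. With the sample number as a block, quail minus chicken was -0.23 and duck minus quail 0.07. These comparisons share samples, so they are not separate evidence.

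**Figure D4:**
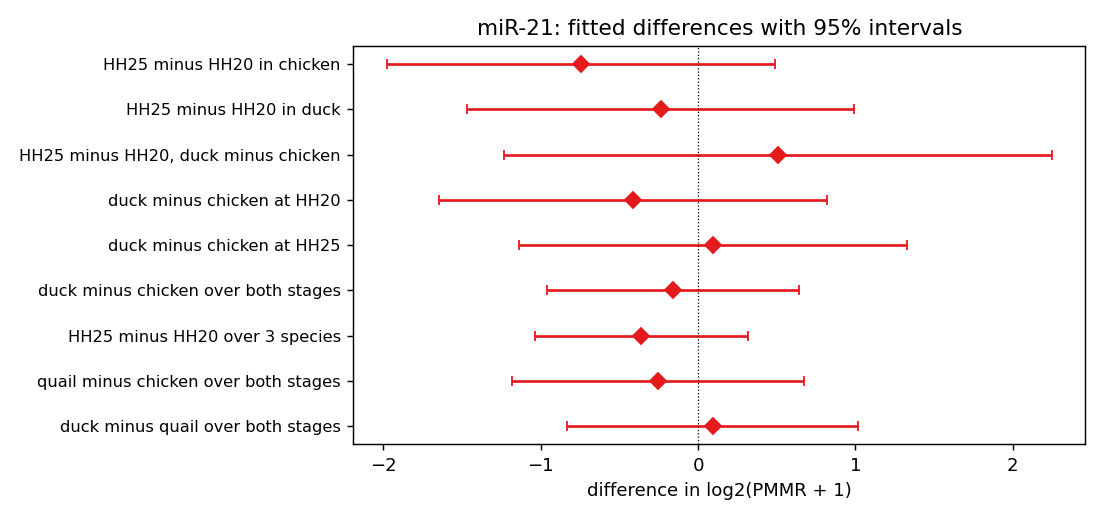
Log2 change of miR-21 in each of the 9 comparisons on the log2(PMMR + 1) scale, drawn as a diamond with its 95% limma interval. Every interval spans 0, from the narrowest over 3 species (-1.04 to 0.31) to the duck minus chicken stage difference (-1.24 to 2.25).

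Between the samples of a group, miR-21 differed about as much as other miRNAs in chicken and less than most in duck. The first and second samples differed by 1.08-fold in duck at HH25 and 1.15-fold in duck at HH20, where the median difference of all miRNAs was 1.46-fold at both stages. In chicken at HH25 the second sample was 2.35-fold higher (median difference of all 2.28-fold), and at HH20 the first was 1.70-fold higher (1.59-fold). The 2 runs of the 5-embryo chicken pool at HH25 gave 47169 and 40917 PMMR, 1.15-fold apart, where the median was 1.18-fold. Of all miRNAs, 8.06% in duck at HH25 and 21.5% in duck at HH20 differed less than miR-21 did, against 51.1% in chicken at HH25 and 55.4% in chicken at HH20.

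The miRNAs whose levels ran most like miR-21 over the 10 samples were far rarer. Of 164 others with a mean of at least 15 PMMR, miR-31, a miRNA of epithelia that is also on the surface ectoderm list, had the highest Spearman rho, 0.76 (Pearson r 0.57). It had 93.8 and 48.5 PMMR in duck at HH25, against 378.3 and 74.5 PMMR at HH20. Chicken had 24.6 and 165.2 PMMR at HH25, against 130.3 and 155.6 PMMR at HH20, and quail had 13.9 PMMR at HH25 and 8.42 PMMR at HH20. miR-31 was thus lowest in quail, where miR-21 had 32998 PMMR at HH25 and 29582 PMMR at HH20, below its mean of 35911 PMMR. The lowest miR-21 value, 18764 PMMR, was in the first chicken sample at HH25. Next came miR-183 (0.66, r 0.67) and miR-182 (0.66, r 0.68), neighbours in a sensory organ cluster, then miR-145* (0.65, r 0.82) from the smooth muscle cluster of miR-143, and miR-302b* (0.50, r 0.43) of a pluripotency cluster. Without the first chicken sample at HH25, rho was 0.53 (r 0.27) for both miR-183 and miR-182. It was then 0.52 (r 0.62) for miR-145*, 0.32 (r 0.28) for miR-302b* and 0.77 (r 0.54) for miR-31.

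At the other end, miR-30e had a rho of -0.84 (r -0.75) and miR-135a-3* one of -0.82 (r -0.84). miR-30e was highest in the first chicken sample at HH25, at 17439 PMMR, where miR-21 was lowest. miR-135a-3* was also highest there, at 907.3 PMMR. Without that sample rho was -0.78 (r -0.64) for miR-30e and -0.75 (r -0.67) for miR-135a-3*, and miR-19b had the lowest, -0.80. Over all samples 5 miRNAs had a rho over 0.5 and 33 one under -0.5. These counts were 14 and 13 after median-centring, and 19 and 24 with scaling to the reads on listed miRNAs. The points share their libraries and scaling to total reads, and chicken supplies both ends of the miR-21 range. Without the samples farthest from the median, the first chicken samples at HH20 and HH25, rho was 0.81 for miR-31 and -0.76 for miR-30e, but 0.33 for miR-145* and 0.12 for miR-302b*. After median-centring, or scaling to the reads on listed miRNAs, miR-145* came first, at 0.87 and 0.81, and 2 of the 5 named miRNAs stayed among the highest 5. After median-centring miR-210 had the lowest rho, -0.73, with miR-30e at -0.42 and miR-135a-3* at -0.54. With that scaling miR-30a-5p had the lowest, -0.99, with miR-30e at -0.82 and miR-135a-3* at -0.71.

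**Figure D5:**
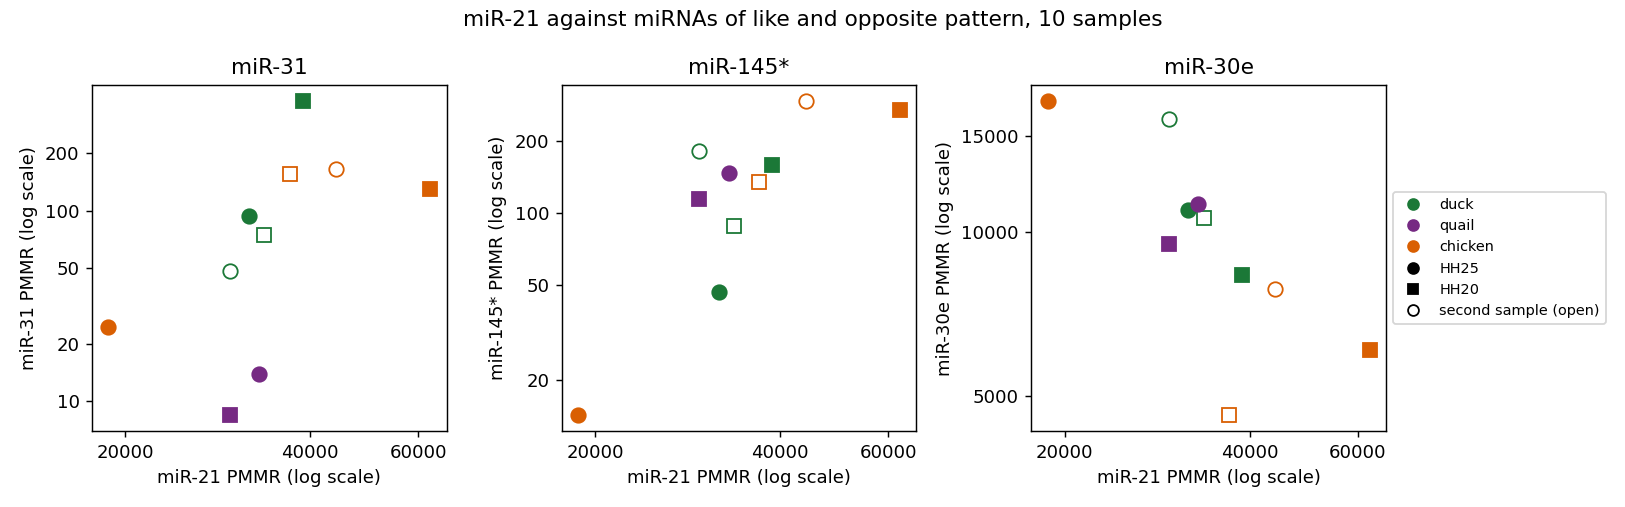
Level of miR-31, miR-145* and miR-30e against that of miR-21 in the 10 samples, in PMMR on log scales, with colours for species, circles for HH25, squares for HH20 and open symbols for second samples. The first chicken samples form both ends of the miR-21 range, at 18764 PMMR (HH25) and 62785 PMMR (HH20).

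Of the miRNAs listed on chromosome 19 of gga3, those within 1000000 bases of miR-21 were miR-130c, 176952 bases away, and miR-301b-3p, 177244 bases away. miR-130c ranged from 198.4 to 430.4 PMMR and miR-301b-3p from 161.4 to 687.0 PMMR, both far under miR-21. Their levels ran against it, with rho -0.79 (r -0.59) and -0.68 (r -0.55) over the 10 samples.

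The letters CAGAC, searched in the mature strand as written, stood in 5 of 186 sequences (2.69%), those of miR-21, miR-148a*, miR-199, miR-215 and miR-3529. The reverse complement GUCUG stood in 9 (4.84%), and 1 or the other in 14 (7.53%). A match in a mature strand is a description and not a binding site. Of the 13 other miRNAs with either motif, 0 were called by stage over the 3 species by limma (1 at an unadjusted p under 0.05, and 0 by voom), where 3.23% of all were called. Their median stage change was -0.23 on the log2 scale, against 0.06 for all miRNAs. For duck minus chicken over both stages 3 of the 13 were called, all lower in duck: miR-3529 at -3.11 on the log2 scale (limma adjusted p = 0.00294), miR-2970 at -2.81 (0.00356), and miR-215 between them (0.00356). For miR-215, the paper's own quantitative PCR of duck and chicken bore out the difference at HH20 only. The share of all miRNAs called for duck minus chicken over both stages was 9.68%. Duck and quail reads were matched to miRNAs of other species, and the part of sequence differences in these 3 calls was not tested. The median of the 13 was 0.26 there, against 0.20 for all. For duck minus quail the same 3 were called lower in duck, with a median of -0.74 for the 13 against -0.00 for all and 5.91% of all called. For quail minus chicken miR-3529 was called higher in quail, at 2.50 (limma adjusted p = 0.0120), where 1.08% of all were called. Of the 13, 11 had positive values, with a median above the 0.33 of all. That call of miR-3529 was lost once first and second samples were blocked in the fit. It was also lost when either quail sample was left out. Most of the 3 calls for duck minus quail were lost when either quail sample was left out. Quail gave 1 sample a stage to both differences. miR-199, which is also on the mesenchymal list, had its lowest value, 57.4 PMMR, in the chicken HH25 sample that stood apart, and reached 5005 PMMR, and its stage change in the first chicken pair was -4.73 on the log2 scale, beside -1.74 for miR-21. In the second chicken pair those values were 0.81 for miR-199 and 0.25 for miR-21. In the duck pairs miR-199 was at 0.18 and 0.97, opposite in sign to miR-21 at -0.29 and -0.19. Quail had 0.34 for miR-199 and 0.16 for miR-21. The other CAGAC strands had 1.83 (miR-215), 0.51 (miR-148a*) and -0.41 (miR-3529) in the first chicken pair.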

How the data were processed

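The authors removed adapters, matched reads to miRBase release 16 (miRanalyzer release 1, 0 to 2 mismatches allowed), and deposited 1 value per miRNA and library in PMMR, together with the total reads. All values (100.0%) came out as whole reads, within 0.05 reads, when multiplied by that total. A read was worth 0.0918 to 0.323 PMMR.

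limma 3.58.1 (R 4.3.3) was fitted across all 186 miRNAs on log2(PMMR + 1), with trended variances and a Benjamini-Hochberg threshold of 0.05. Fits of chicken and duck groups gave changes within a species or stage, and fits with species or stage as a term gave the rest. Second samples are labelled biological replicates. Stage pairs and pooled shares carry counting error only. Scripts were tested on simulated data. Python 3.11.15, numpy 2.4.6, pandas 2.3.3, scipy 1.17.1 and matplotlib 3.10.9 were used.

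The miRNAs named are the most abundant ones, the 5 most and 2 least alike in pattern, those near in sequence or position, and those with the motif. miR-21, these lists and the tests were chosen with earlier results of these data known. Sequences and gga3 positions come from the study's tables, and gene neighbours from RefSeq.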

Additional observations from a re-analysis of the deposited data

Results flagged for a closer look

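Among the 5 samples at HH20, the first chicken sample stood above the others at 62785 PMMR. Its gap to the next sample was 0.72 of the whole range, just past the limit of 0.71 for 5 samples. The gap was taken in PMMR and not on the log2 scale of the tests. As a share of the reads on listed miRNAs the same gap was 0.60 of the range, under that limit. The 10 sets examined were 5 groups of samples on both measures, none of the others stood out, and chance sets apart about 1 in 20 groups.

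The stage change of miR-21 was 0.16 on the log2 scale in quail, higher at HH25, against -0.29 and -0.19 in the duck pairs, lower at HH25. The opposite signs rest on 1 quail sample a stage, and the difference was not tested. As a share of the reads on listed miRNAs the signs were alike, at -0.15 in quail against -0.45 and -0.32 in duck.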

How the results depend on the processing

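Alternatives were pseudocounts of 0.1 and 10, median-centring, scaling to the reads on the listed miRNAs, only miRNAs averaging 15 PMMR or more, untrended variances, voom weights, each run of the second chicken HH25 sample, a replicate block, and leaving out each sample. A planned edgeR test of the recovered reads was not run. miR-21 was called under none of the alternatives run. Scaling to the reads on listed miRNAs turned duck minus chicken at HH25 to -0.16, duck minus quail to -0.12 and the quail stage change to -0.15. It moved duck minus chicken to -0.76 at HH20 and -0.46 over both stages. The stage change moved to -0.98 in chicken, -0.38 in duck and -0.58 over 3 species. Single runs of the second chicken HH25 sample gave 0.04 and 0.15 for duck minus chicken at HH25. Median-centring gave a stage change of 0.50 in quail, -0.02 in duck and -0.87 in chicken, and 0.84 for duck minus chicken in stage change. It gave -0.74 and -0.32 for duck minus chicken at HH20 and over both stages. Quail minus chicken was then -0.63 and duck minus quail 0.31. With the reads on listed miRNAs as denominator the mean share was 5.35%, against 3.59% of all reads. The rho of miR-31 was 0.59 with that scaling and 0.81 without the 2 farthest samples.

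Leaving out 1 sample gave -1.36 to -0.13 for the chicken stage change, -0.34 to -0.13 for duck, -0.11 to 1.12 for their difference and -0.49 to -0.11 over 3 species. Duck minus chicken ran from -0.80 to -0.03 at HH20, -0.52 to 0.71 at HH25 and -0.46 to 0.04 over both stages (0.043 without the first chicken HH20 and 0.035 without the second chicken HH25 sample), quail minus chicken from -0.58 to 0.07 (0.072 without quail HH20), and duck minus quail from -0.23 to 0.42. The mean share ran from 3.29 to 3.78% and rho from 0.70 to 0.82. The cause of these shifts was not tested.

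The sample number marks the preparation (40 or 5 embryos). Second-minus-first differences correlated across miRNAs at 0.25 and 0.01 between stages of duck and chicken. Between duck and chicken they correlated at 0.20 (HH25) and 0.61 (HH20). The main fits had no term for the part shared at HH20. The replicate block gave -0.36 (limma adjusted p = 0.530) over 3 species and -0.75 (0.557) in chicken, and changed no call of miR-21. Counts of all calls under the block against none were 3 against 0 for the chicken stage change, 0 against 4 for duck minus chicken at HH25 and 1 against 2 for quail minus chicken. With each sample left out in turn they ran from 0 to 53 and 0 to 43 (both highest without the second chicken HH25 sample, 7 and 7 without the first) and 0 to 11. The other counts also shifted with the sample left out. For the duck stage change and for duck minus chicken at HH20 they were highest, and equal, without either chicken HH25 sample. For duck minus chicken over both stages, the stage change over 3 species and duck minus quail they were highest without the first, as for quail minus chicken. For the difference of stage changes the count was highest without the second. With 1 or 2 samples a group, the intervals within a species held 2-fold changes.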
